A study of Homo sapiens with 6 samples.

Results

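The phosphofructokinase genes PFKL, PFKM and PFKP, the regulatory genes PFKFB2, PFKFB3 and PFKFB4, and TIGAR were followed in HN12 cells, an established line from a human squamous cell carcinoma of the head and neck. These 7 genes were selected by symbol among the 16330 genes of the deposited per-gene table, and their 70 transcripts, 11 of them from PFKFB3, by gene identifier among the 79031 transcripts of the deposited count table. The symbols were listed with earlier results of the same comparison known, so the values of these genes are a description. Where a fit over all genes called 1 of them, the call is stated as part of that description, with no p, and nothing is supported with it. Of the 6 libraries, 3 came from cells given the solvent DMSO (Control) and 3 from cells given CPI-613, both for 24 h in the same line and medium. CPI-613, also named devimistat, resembles lipoate and targets the mitochondrial complexes that oxidise pyruvate and 2-oxoglutarate. The labels give no genetic change for either group, and the dose is not given in the sources used here. Nor do they state that the libraries came from separate cultures, so the spread between them may be technical.

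Phosphofructokinase-1 commits glucose to glycolysis by phosphorylating fructose 6-phosphate to fructose 1,6-bisphosphate, and its liver (PFKL), muscle (PFKM) and platelet (PFKP) subunits assemble into tetramers. Its strongest allosteric activator, fructose 2,6-bisphosphate, is made and removed by the bifunctional PFKFB enzymes, each of which carries a kinase and a phosphatase domain. PFKFB3 has a kinase activity that far exceeds its phosphatase activity and is the isozyme most often described in proliferating and tumour cells, where hypoxia-inducible factor and other signals induce it. TIGAR, a p53 target related to the phosphatase domain, lowers fructose 2,6-bisphosphate and is known for diverting glucose to the pentose phosphate pathway.

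PFKFB3 was the gene of this family that stood apart between the groups. Its level was 3.12-fold lower with CPI-613, while PFKFB2 and PFKFB4, the other members of its family with measurable RNA, had higher means whose ranges overlapped Control. Within the PFKFB genes the leading isozyme per length was PFKFB3 in each Control library and PFKFB4 in each CPI-613 library. The phosphofructokinase genes had overlapping ranges of counts between the groups, with the per-length order of PFKP, PFKL and PFKM in every library. Of the 7 genes 1 was called, PFKFB3, lower, by edgeR's quasi-likelihood test at a Benjamini-Hochberg adjusted p under 0.05 over all genes. The same test called 3.18% of all 12671 tested genes in either direction and 1.24% lower, and nothing is read from the count of 1, since the genes were chosen on this contrast. All 7 genes passed the count filter. Their median log2 fold change was 0.11, beside 0.02 over all genes tested.

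The libraries held 11531942 to 15486513 counts, and counts are given as CPM (counts scaled to a common library size, here with edgeR's TMM method). Within each group, libraries departed from each other with the GC content and length of the transcripts, and for these 7 genes most in CPI-613 replicates 1 and 3. Each difference of the 7 genes is therefore given also after removal of each library's trend on these properties (GC- and length-adjusted). Squamous markers summed to 10180 to 13170 CPM in Control and 9012 to 18010 CPM with CPI-613, with all 10 in the table, ITGB4 called higher by edgeR and 9 not called. The ITGB4 call ended without the count filter (edgeR adjusted p = 0.0526), with a block for the replicate number (0.113), and without any 1 Control library or without CPI-613 replicate 2 (0.0778 to 0.304). KRT5, a basal keratin chosen after its values were seen, lay lower in every CPI-613 library (2231 ± 295 and 962 ± 552 CPM, log2 fold change -1.21, SE 0.42, not called). It was called lower when GC- and length-adjusted (-1.46, SE 0.27, edgeR adjusted p = 0.0139, with 0.0105 to 0.641 over the alternatives). Leukocyte markers, of which 4 of 9 were in the table, summed to 60.88 to 91.27 CPM in Control and 40.79 to 81.73 CPM with CPI-613, and to at most 1.475 CPM in any library without CD14 and CD68, which are not limited to leukocytes. CD14 was called lower (24.38 ± 6.45 to 2.433 ± 1.79 CPM, SD, n = 3, edgeR adjusted p = 0.025, a call that ended without any 1 Control library or without CPI-613 replicate 2, with 0.0579 to 0.133). Fibroblast markers (3 of 6 in the table) summed to 35.57 to 41.62 and 31.02 to 41.37 CPM, most of it COL1A1. Endothelial markers (all 4 in the table) summed to 1.298 to 2.744 and 0.2139 to 0.615 CPM, lower in every CPI-613 library, and skeletal muscle markers (3 of 6) to 0.8542 to 1.986 and 1.076 to 1.627 CPM. The part of these markers in the results below was not tested.

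PFKFB3 (gene ID 5209) lies on chromosome 10 at 6144921 to 6326637 of GRCh38.p14, on the forward strand, and has several starts. The RefSeq promoter table holds a window for an upstream start and one for a start 57997 bases further downstream, counted between the GENCODE 29 transcripts paired with the main RefSeq transcripts of each. Both windows are printed here because the transcripts of the gene, given below, differed by start. The upstream window is chr10:6144671-6144920, the 250 bases before the start. The downstream window is chr10:6202682-6202865, which stops before 6202866, the first base that GENCODE 29 places in an exon of PFKFB3 there. Capitals mark the E-box CACGTG and the GC box GGGCGG, the latter on either strand.
PFKFB3 upstream window: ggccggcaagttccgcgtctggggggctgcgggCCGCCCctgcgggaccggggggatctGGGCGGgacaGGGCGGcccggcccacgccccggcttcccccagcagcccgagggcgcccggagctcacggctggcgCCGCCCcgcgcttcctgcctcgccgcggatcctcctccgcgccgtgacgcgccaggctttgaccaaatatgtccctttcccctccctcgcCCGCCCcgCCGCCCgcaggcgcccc
PFKFB3 downstream window: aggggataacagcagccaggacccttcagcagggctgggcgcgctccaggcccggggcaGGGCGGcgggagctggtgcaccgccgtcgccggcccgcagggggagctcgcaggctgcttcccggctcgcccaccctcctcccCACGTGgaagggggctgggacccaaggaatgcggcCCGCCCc
The E-box is a site that MYC and related factors are known to bind, and it holds on each strand the letters ACGTG, the core of the hypoxia response element. It occurs 1 time in the downstream window, from 6202824 to 6202829, 108 bases before the start given in RefSeq, and 0 times in the upstream window. Of all 35116 promoter windows of 250 bases in the RefSeq table, 6.34% hold CACGTG and 18.51% hold ACGTG on either strand. GC boxes, which SP1 is known to bind, number 6 in the upstream and 2 in the downstream window, beside 42.64% of all windows with at least 1. The hypoxia core GCGTG occurs 1 time in the upstream window and is in 32.22% of all windows. The cAMP and ATF core TGACGT occurs 1 time downstream, 61 bases before the RefSeq start and past the printed stretch, and is in 7.1% of all windows. The full element TGACGTCA (1.65% of all windows), the C/EBP-ATF element TGATGNAA (3.14%) and the sterol element TCACNCCAC (0.88%) were searched on both strands and have 0 matches in these windows. These are matches of letters only, and binding was not measured. Windows were found for 6 of the 7 genes, 16 in all, and CACGTG was matched in none of the 14 that belong to PFKL, PFKM, PFKP, PFKFB4 and TIGAR. The other motifs matched at PFKFB3 were not particular to it. ACGTG was matched at PFKM, PFKP and TIGAR, TGACGT at TIGAR, and GCGTG at PFKL, PFKP and PFKFB4. GC boxes were matched at all of these genes, with 7 in the PFKL window and 5 in the PFKFB4 window.

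PFKFB3 measured 189.3, 173.2 and 221.8 CPM in Control replicates 1 to 3 and 51.84, 60.12 and 75.07 CPM in CPI-613 replicates 1 to 3. The highest CPI-613 library lay far below the lowest Control library, so the groups did not overlap, as was so for 21.0% of all tested genes in either direction. The means were 194.8 ± 24.7 and 62.34 ± 11.8 CPM (SD, n = 3), a log2 fold change of -1.64 (SE 0.21). The GC- and length-adjusted difference was -1.76 (SE 0.15), from adjusted levels of 199.7, 169.8 and 235.7 CPM in Control and 58.68, 57.91 and 62.65 CPM with CPI-613. The CPI-613 libraries were closer to each other after the adjustment than before it (SD 2.54 CPM). The Control libraries lay further apart (SD 33.0 CPM), and the gap between the groups stayed. Over 18 alternatives the log2 difference ran from -1.86 to -1.52, and edgeR, DESeq2 or limma called it lower in 15 of them. The call ended in the fits without Control replicate 1, without Control replicate 3 or without CPI-613 replicate 2, in which edgeR called 0, 0 and 7 of all genes (1064, 1118 and 1169 at an unadjusted p under 0.05). The PFKFB3 difference was -1.66 (SE 0.27), -1.54 (SE 0.25) and -1.61 (SE 0.29) in these fits, close to that with all libraries. With all 6 libraries DESeq2 called 893 genes and limma-voom 414, PFKFB3 among them in both.

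PFKFB4 (chromosome 3, 48517684 to 48563136), an isozyme that is also induced by hypoxia and is found in many tumours, measured 70.23, 46.28 and 64.84 CPM in Control and 69.23, 82.49 and 87.78 CPM with CPI-613. The highest Control library lay just above the lowest CPI-613 library, and Control replicate 2 was the lowest of all. The log2 fold change was 0.40 (SE 0.22), and 0.28 (SE 0.20) when GC- and length-adjusted, with no call under any of the 18 alternatives. PFKFB2 (chromosome 1, 207034416 to 207081027), the heart isozyme, whose kinase is activated by phosphorylation through AKT and other kinases, measured 34.1, 27.72 and 34.75 CPM in Control and 49.13, 46.66 and 32.69 CPM with CPI-613. CPI-613 replicates 1 and 2 lay above Control, and replicate 3 lay within it. Its log2 fold change of 0.41 (SE 0.24) was not called, and it was 0.24 (SE 0.28) scaled by library size only and 0.13 (SE 0.25) as log2(FPKM + 1). GC- and length-adjusted it was 0.67 (SE 0.17), which that fit called higher. That fit called 11.7% of all tested genes, and with a block for the replicate number added the value of PFKFB2 was 0.65 (SE 0.19), which was not called. The adjustment moved CPI-613 replicate 3 most, to 55.52 CPM, where the fitted trend of GC content and length for this long, GC-poor transcript was -0.76 on the log2 scale. PFKFB1, the liver isozyme, had 4, 2 and 2 counts in Control and 1, 4 and 1 with CPI-613, too few to pass the filter.

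**Figure D1:**
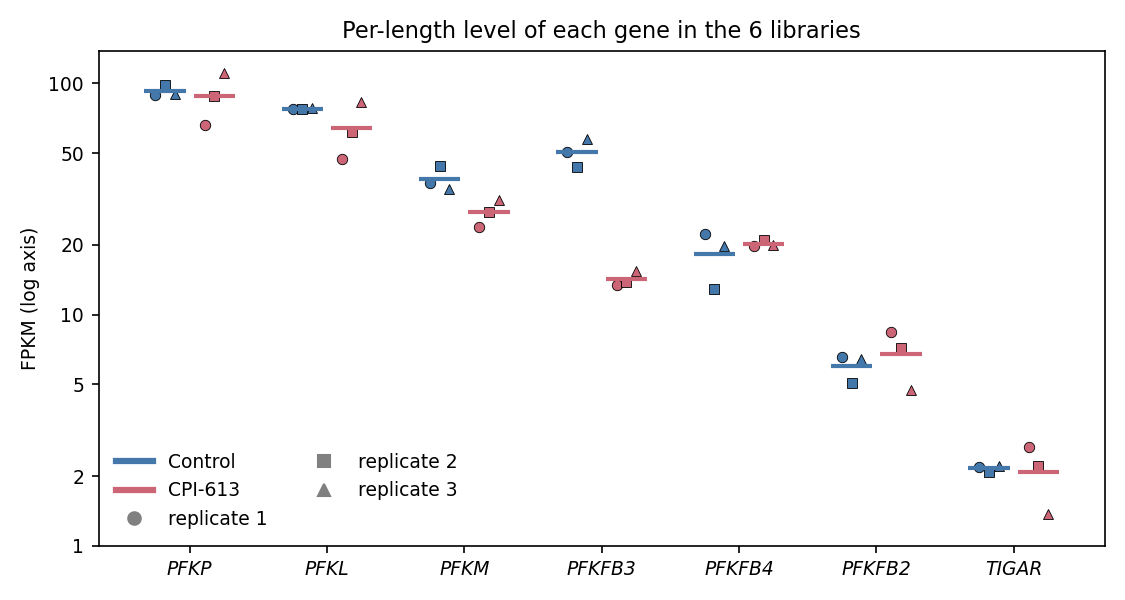
FPKM of each gene on a log axis, with a symbol for each library (blue, Control; red, CPI-613; shape, replicate) and a line at the mean of each group. PFKFB3 lies at 43.42 to 57.28 FPKM in Control and 13.36 to 15.44 FPKM with CPI-613, while PFKP, PFKL and PFKM are lowest in CPI-613 replicate 1 and, for PFKP and PFKL, highest in CPI-613 replicate 3.

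The level of different genes can be compared per length, in FPKM (fragments per kilobase of transcript, scaled to the library total). PFKFB3 measured 50.66, 43.42 and 57.28 FPKM in Control and 13.36, 13.79 and 15.44 FPKM with CPI-613. In Control the means fell in the order PFKP (92.56 ± 4.78 FPKM, SD, n = 3), PFKL (77.71 ± 0.43), PFKFB3 (50.45 ± 6.93), PFKM (38.59 ± 4.62), PFKFB4 (18.29 ± 4.87), PFKFB2 (5.997 ± 0.83) and TIGAR (2.17 ± 0.07). Only the ranges of PFKFB3 and PFKM overlapped among neighbours. With CPI-613 the order was PFKP (88.46 ± 22.7 FPKM), PFKL (64.11 ± 18.2), PFKM (27.68 ± 3.74), PFKFB4 (20.26 ± 0.64), PFKFB3 (14.2 ± 1.10), PFKFB2 (6.77 ± 1.89) and TIGAR (2.083 ± 0.66). Here PFKP and PFKL overlapped, and PFKFB3 had moved from the third place to the fifth. The length behind these values follows the transcripts estimated in each library and differed between libraries by 0.2% for TIGAR to 7.9% for PFKFB2.

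The summed FPKM of PFKFB2, PFKFB3 and PFKFB4 was 79.43, 61.31 and 83.48 in Control and 41.62, 41.94 and 40.13 with CPI-613. All CPI-613 sums lay below all Control sums. PFKFB3 made up 63.78%, 70.82% and 68.62% of the sum in Control and 32.1%, 32.88% and 38.47% with CPI-613. PFKFB4 made up 28%, 20.96% and 23.69% in Control and 47.62%, 50.07% and 49.76% with CPI-613. A change in 1 gene moves the shares of the others, and the FPKM of PFKFB4 itself, 12.85 to 22.24 in Control and 19.82 to 21 with CPI-613, overlapped. The share of PFKFB2 went from 8.04% ± 0.31 to 16.36% ± 4.30 (SD, n = 3), again with overlap of its own FPKM.

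**Figure D2:**
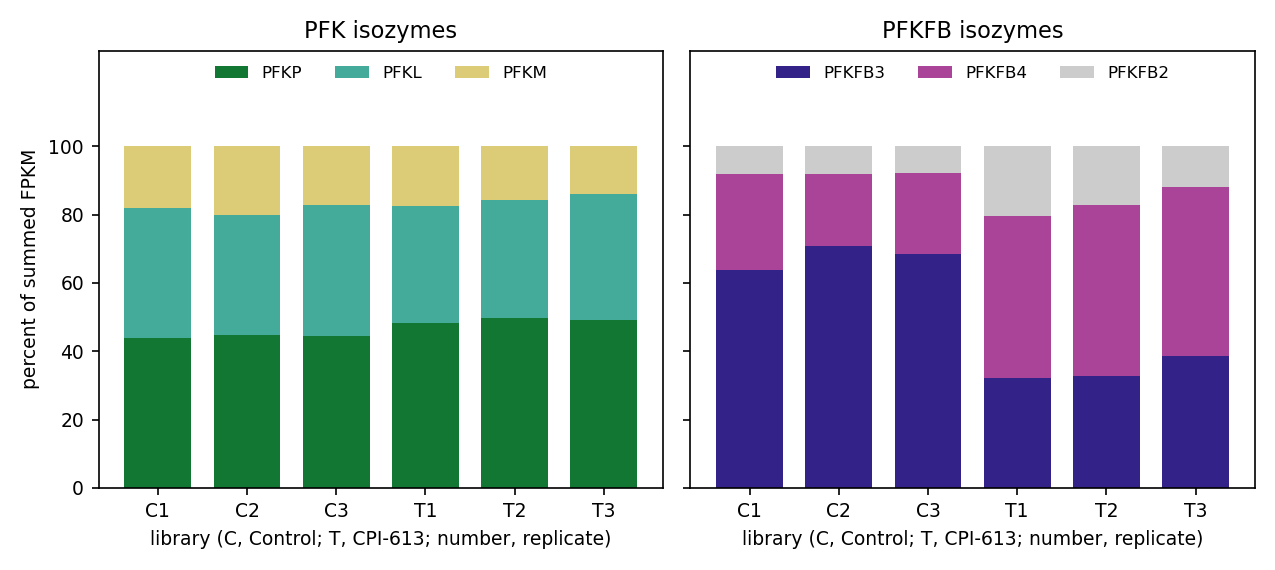
Share of each isozyme in the summed FPKM of PFKP, PFKL and PFKM (left) and of PFKFB3, PFKFB4 and PFKFB2 (right), in percent, with 1 bar for each library. PFKFB3 takes a mean of 67.74% in Control and 34.49% with CPI-613, and PFKP a mean of 44.31% and 48.99%.

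The lower level of PFKFB3 was not even over its transcripts. The counts of a transcript are estimates, since reads shared by transcripts are divided between them, and they are given without a test. NM_004566, whose paired GENCODE transcript begins at the downstream start (6202931), measured 114.1, 86.83 and 142.4 CPM in Control and 20.51, 21.62 and 29.99 CPM with CPI-613. It had the most counts of the PFKFB3 transcripts in each Control library, its groups did not overlap, and its mean was 4.76-fold lower with CPI-613. NM_001145443, paired with the upstream start (6144934), measured 45.06, 54.5 and 32.05 CPM in Control and 23.93, 27.33 and 35.96 CPM with CPI-613. Its mean was 1.51-fold lower, CPI-613 replicate 3 lay above Control replicate 3, and it had the most counts in each CPI-613 library. The ratio of NM_004566 to NM_001145443 was 2.53, 1.59 and 4.44 in Control and 0.857, 0.791 and 0.834 with CPI-613. The ratio was thus above 1 in each Control library and below 1 in each CPI-613 library. These counts were not divided by transcript length, so which transcript leads per length is not given by them. It varied among the Control libraries, with replicate 2 nearest to the CPI-613 libraries.

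Summed over the 4 transcripts placed at the downstream start, the level was 124.2, 97.39 and 159.6 CPM in Control and 25.2, 27.07 and 31.92 CPM with CPI-613, a mean 4.53-fold lower. Summed over the 3 transcripts grouped with the upstream start, it was 47.1, 57.32 and 33.54 CPM in Control and 24.57, 28.31 and 35.96 CPM with CPI-613, a mean 1.55-fold lower. Of these 3, NM_001282630 is paired with a GENCODE transcript that begins further on, at 6146316, and had counts only in Control replicate 2 (20.5). The downstream sums did not overlap and the upstream sums did. The downstream start held 64.59% ± 7.92 of the counts of the gene in Control and 45.39% ± 3.06 with CPI-613, and the upstream start 24.36% ± 8.99 and 47.46% ± 0.41 (SD, n = 3). XM_005252464, a model transcript whose start was not placed, measured 17.85, 18.36 and 28.4 CPM in Control and 0.0635, 4.74 and 7.19 CPM with CPI-613. It too lay lower in every CPI-613 library, and its start would have to be known to assign its counts. NM_001323017, which also reached 5% of the gene in a library, shares its GENCODE pairing with NM_004566 and measured 4.37 to 8.82 CPM in Control and 1.53 to 4.28 CPM with CPI-613. Whether transcription from the starts differed was not measured, and the division of shared reads between transcripts was not tested.

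**Figure D3:**
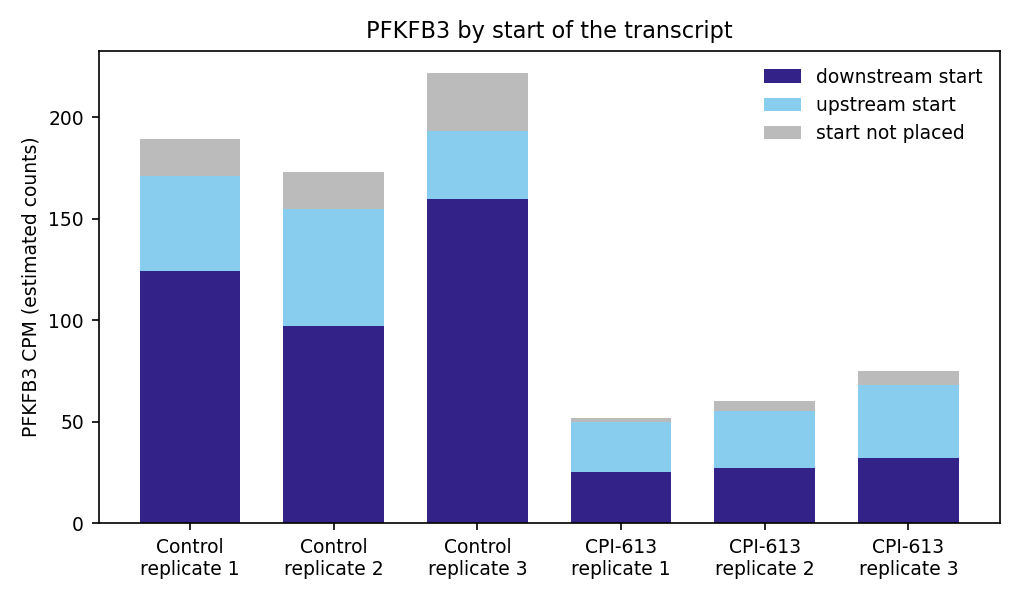
CPM of PFKFB3 in each library, stacked by the start with which the transcripts were paired. The downstream part reaches 97.39 to 159.6 CPM in Control and 25.2 to 31.92 CPM with CPI-613, while the upstream part reaches 33.54 to 57.32 and 24.57 to 35.96 CPM.

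PFKP (chromosome 10, 3067548 to 3136805), the platelet isozyme and the most abundant phosphofructokinase per length here, measured 192.4, 228.3 and 199.7 CPM in Control and 151.2, 226.9 and 319.1 CPM with CPI-613. PFKL (chromosome 21, 44300053 to 44327373), the liver isozyme, measured 188.6, 201.6 and 195 CPM in Control and 120.9, 178.1 and 267.7 CPM with CPI-613. PFKM (chromosome 12, 48105353 to 48146404), the muscle isozyme, measured 93.04, 119.4 and 90.2 CPM in Control and 64.81, 83.26 and 105.7 CPM with CPI-613. In all 3 genes CPI-613 replicate 1 was the lowest library of the 6, and in PFKP and PFKL CPI-613 replicate 3 was the highest. The fitted GC and length trend moved with these values, at -0.33, 0.08 and 0.45 on the log2 scale for PFKL in CPI-613 replicates 1 to 3. For PFKP it was -0.29, 0.06 and 0.41, and for PFKM -0.17, 0.07 and 0.25.

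The log2 fold changes were 0.17 (SE 0.28) for PFKP, -0.05 (SE 0.29) for PFKL and -0.25 (SE 0.24) for PFKM. None of them exceeded the spread between libraries by a call of edgeR, DESeq2 or limma in any of the 18 alternatives. The sign for PFKP and PFKL turned with the library left out, from -0.13 without CPI-613 replicate 3 to 0.41 without CPI-613 replicate 1 for PFKP and from -0.38 to 0.20 for PFKL. GC- and length-adjusted, PFKP measured 214.9 ± 5.83 and 214.4 ± 27.7 CPM, a log2 difference of 0.00 (SE 0.13). PFKL then measured 206.8, 187.3 and 219.7 CPM in Control and 152.4, 168.1 and 195.9 CPM with CPI-613, a difference of -0.25 (SE 0.13). For PFKM the adjusted difference was -0.37 (SE 0.13), with 104.1 ± 10.5 and 80.28 ± 8.18 CPM (SD, n = 3). On the FPKM scale PFKM measured 36.94, 43.81 and 35.02 in Control and 23.87, 27.81 and 31.35 with CPI-613. Its groups thus did not overlap in FPKM, which is scaled to library totals, where they overlapped in TMM-scaled CPM. The length behind the FPKM of PFKM differed by 2.2% between libraries. GC- and length-adjusted, its groups did not overlap either (96.87 to 116.2 CPM in Control and 72.67 to 88.92 CPM with CPI-613). No fit called it.

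As a share of the summed FPKM of the 3 isozymes, PFKP took 43.85%, 44.75% and 44.32% in Control and 48.13%, 49.6% and 49.23% with CPI-613. These shares did not overlap, although the sums did (204.2, 219.2 and 203.3 FPKM against 136.9, 178 and 225.8 FPKM). PFKL took 37.26% ± 1.74 and 35.36% ± 1.33, and PFKM 18.44% ± 1.41 and 15.65% ± 1.78 (SD, n = 3), with overlap for both.

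TIGAR (chromosome 12, 4321213 to 4360028), which has 1 transcript in the count table, measured 15.83, 16.15 and 16.42 CPM in Control and 20.39, 18.83 and 13.09 CPM with CPI-613. CPI-613 replicates 1 and 2 lay above all Control libraries and replicate 3 below them. The log2 fold change was 0.11 (SE 0.25), and 0.25 (SE 0.15) when GC- and length-adjusted. That adjustment used a GENCODE transcript of 3633 bases, while the length behind the FPKM of TIGAR was 7954 to 7968 bases. The effect of this mismatch on the adjusted value was not tested. The sign turned with counts scaled by library size only (-0.06) and without CPI-613 replicate 1 (-0.01). It also turned on the FPKM scale, to -0.06 with a pseudocount of 1 and -0.10 with a pseudocount of 0.1. The trend fitted from the GC-poor GENCODE transcript was 0.26 in CPI-613 replicate 1 and -0.54 in CPI-613 replicate 3, the direction in which these libraries depart.

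**Figure D4:**
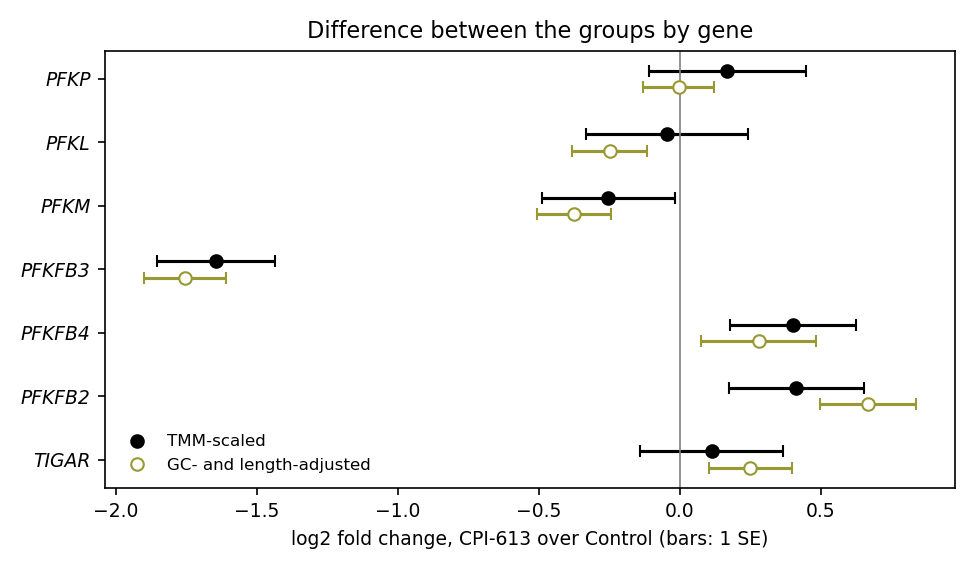
Log2 fold change of CPI-613 over Control for each gene, with bars of 1 SE, from the TMM-scaled counts (filled) and after the GC and length adjustment (open). PFKFB3 lies at -1.64 and -1.76, and the other 6 genes lie between -0.37 and 0.67.

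In PFKL, PFKP and PFKFB2 the leading transcript was the same in all 6 libraries, at similar shares. NM_002626 held 90.51% ± 1.56 of PFKL in Control and 90.7% ± 2.15 with CPI-613, and NM_002627 90.87% ± 2.0 and 92.82% ± 1.20 of PFKP (SD, n = 3). NM_006212 held 76.22% ± 1.46 and 79.13% ± 2.74 of PFKFB2. PFKM was divided over 21 transcripts, with 21.08% ± 3.64 and 27.54% ± 3.40 in NM_000289. In PFKFB4 the entry with the most counts over all libraries was the model transcript XM_011533829, with 32.48%, 63.85% and 37.03% in Control and 55.01%, 56% and 56.57% with CPI-613. Its CPM of 22.81, 29.54 and 24 in Control lay below the 38.1, 46.18 and 49.65 with CPI-613, although the sums of the gene overlapped. NM_004567, chosen after its values were seen, held 36.44%, 18.61% and 37.43% of PFKFB4 in Control, more than XM_011533829 in replicates 1 and 3, and 0%, 0% and 18.77% with CPI-613. Another PFKFB4 transcript, NM_001317136, was at 0 counts in the 4 libraries where NM_004567 had counts and at 163.1 and 107.96 counts in CPI-613 replicates 1 and 2, where NM_004567 was at 0. How the estimated counts were divided between these entries was not tested. Protein-coding genes with counts of their own overlap PFKM (SENP1), PFKFB2 (YOD1) and PFKFB4 (UCN2) in RefSeq. PFKFB3 is overlapped by genes without counts of their own, among them the long noncoding RNAs PFKFB3-AS1 and LINC02649. Whether reads were counted by strand is not given in the sources used here, and the part of overlapping genes in these counts was not tested.

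Among all genes, those whose log2 CPM followed PFKFB3 most closely over the 6 libraries, among 10868 compared, were KRT15, a basal keratin (Pearson r 0.996), DHRS3, a retinaldehyde reductase (0.995), and ELF3, an epithelial transcription factor (0.994). Their log2 fold changes were -2.71 (SE 0.33), -3.29 (SE 0.41) and -2.79 (SE 0.36). All 3 estimates lay further below 0 than that of PFKFB3. These correlations include the difference between the groups, known when PFKFB3 was chosen, and likeness within a group was not tested. PFKP went most closely with C6orf132, CD276 and ZNF416 (0.999 each), and PFKL with ERGIC3 (0.998), ITM2C and TMEM54 (0.997 each). For these 6 genes the log2 fold changes lay between -0.04 and 0.15, and the part of the GC and length trend in this likeness was not tested. PFKM went with KRT7 (0.999), RHOBTB2 (0.998) and FSTL3 (0.997), PFKFB2 with PTGER4 (0.998), DNAJB9 (0.995) and KATNA1 (0.993). TIGAR went with TMEM192 (0.997), CDK7 (0.996) and NSMAF (0.995). PFKFB4 had the least close neighbours, IMMP2L (0.971), TVP23C-CDRT4 (0.970) and SGK1 (0.966). The points share their libraries and depth, and with 6 of them these values are a description.

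Of 15 other tested glycolytic enzymes 1 was called higher by edgeR over all genes, 0 were called lower and 14 were not called. The 1 was PGAM2, the muscle phosphoglycerate mutase, which rose from 0.259 ± 0.09 to 2.332 ± 0.67 CPM (log2 fold change 3.13, SE 0.43, edgeR adjusted p = 0.0141, with up to 0.1004 over the alternatives), a level near the floor of the table. This call ended without Control replicate 1, 2 or 3 (0.1, 0.0539 and 0.0993) or without CPI-613 replicate 2 (edgeR adjusted p = 0.0903). The means of GAPDH, PKM and ALDOA differed by less than 1 SD of their CPI-613 libraries. GAPDH, the triose phosphate dehydrogenase, measured 5731 ± 329 and 7164 ± 2939 CPM, PKM, the pyruvate kinase, 3839 ± 349 and 4427 ± 1854 CPM, and ALDOA, the aldolase that splits the product of phosphofructokinase, 1403 ± 83 and 1653 ± 748 CPM. HK2, the inducible hexokinase, measured 203.2 ± 53.4 and 175.2 ± 17.4 CPM, with groups that overlapped. The lowest estimate of the list was that of ENO2, an enolase, with 26.94 ± 11.6 and 11.2 ± 2.83 CPM (log2 fold change -1.26, SE 0.40, not called, edgeR adjusted p = 0.183). DESeq2 called ENO2 lower, as did the GC- and length-adjusted fit (-1.44, SE 0.37, edgeR adjusted p = 0.0463, with 0.0371 to 0.67 over the alternatives). PGAM1, the common phosphoglycerate mutase, was also called lower in that adjusted fit (-0.59, SE 0.15, edgeR adjusted p = 0.046, with 0.046 to 0.999 over the alternatives). These 6 were chosen after their values were seen. The median log2 fold change of the list was 0.15.

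Of 10 tested genes of glucose and lactate handling 0 were called by edgeR or limma-voom. At an unadjusted p under 0.05 edgeR had 1 higher and 2 lower, and DESeq2 called 1 lower. Over all 12671 tested genes these counts were 1823 and 893, in either direction. LDHA, the lactate dehydrogenase subunit that turns pyruvate into lactate, measured 2557, 2026 and 2712 CPM in Control and 1288, 1514 and 1691 CPM with CPI-613. The groups did not overlap, and the difference of -0.70 (SE 0.21) on the log2 scale was not called (edgeR adjusted p = 0.162, with 0.0253 to 0.627 over the alternatives). GC- and length-adjusted it was -0.48 (SE 0.25, edgeR adjusted p = 0.283). SLC2A6, chosen after its values were seen, lay higher in every CPI-613 library (63.75 ± 17.7 and 121.5 ± 33.2 CPM, log2 fold change 0.93, SE 0.29, edgeR adjusted p = 0.17). It was called higher when GC- and length-adjusted (0.77, SE 0.14, edgeR adjusted p = 0.0107, with 0.0107 to 0.61 over the alternatives). BSG, the chaperone of the lactate transporters, measured 645.3 ± 82.6 and 799.3 ± 314 CPM.

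Among 4 tested genes of the fructose bisphosphatases and gluconeogenesis, 1 was called higher and 0 lower. PCK2, the mitochondrial phosphoenolpyruvate carboxykinase, rose from 15.52, 19.49 and 15.43 CPM in Control to 165.4, 231.6 and 308.5 CPM with CPI-613 (log2 fold change 3.81, SE 0.29, edgeR adjusted p = 0.00418, with up to 0.0635 over the alternatives). The call was lost in the fits that left out Control replicate 1 or 3 (edgeR adjusted p = 0.0609 and 0.0635). PCK2 had the largest difference among the tested genes of all the pathway lists. FBP1, which reverses the reaction of phosphofructokinase, measured 3.36 ± 1.20 and 3.268 ± 1.23 CPM and was chosen after its values were seen.

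Of 9 tested genes of the pentose phosphate pathway, the branch that TIGAR is known to favour, 0 were called by edgeR or limma-voom. In edgeR 3 were higher at an unadjusted p under 0.05, and DESeq2 called 2 higher. Beside these stand 1823 and 893 of all 12671 tested genes, in either direction. TKT, the transketolase, measured 363 ± 55.7 and 494.3 ± 197 CPM. PGD, the 6-phosphogluconate dehydrogenase, measured 189.1, 252.9 and 206.4 CPM in Control and 348.9, 491.6 and 648.2 CPM with CPI-613. Its groups did not overlap, and the difference of 1.20 (SE 0.26) on the log2 scale was not called (edgeR adjusted p = 0.0661). GC- and length-adjusted it was 1.03 (SE 0.12) and passed (edgeR adjusted p = 0.00193, with 0.00193 to 0.336 over the alternatives).

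**Figure D5:**
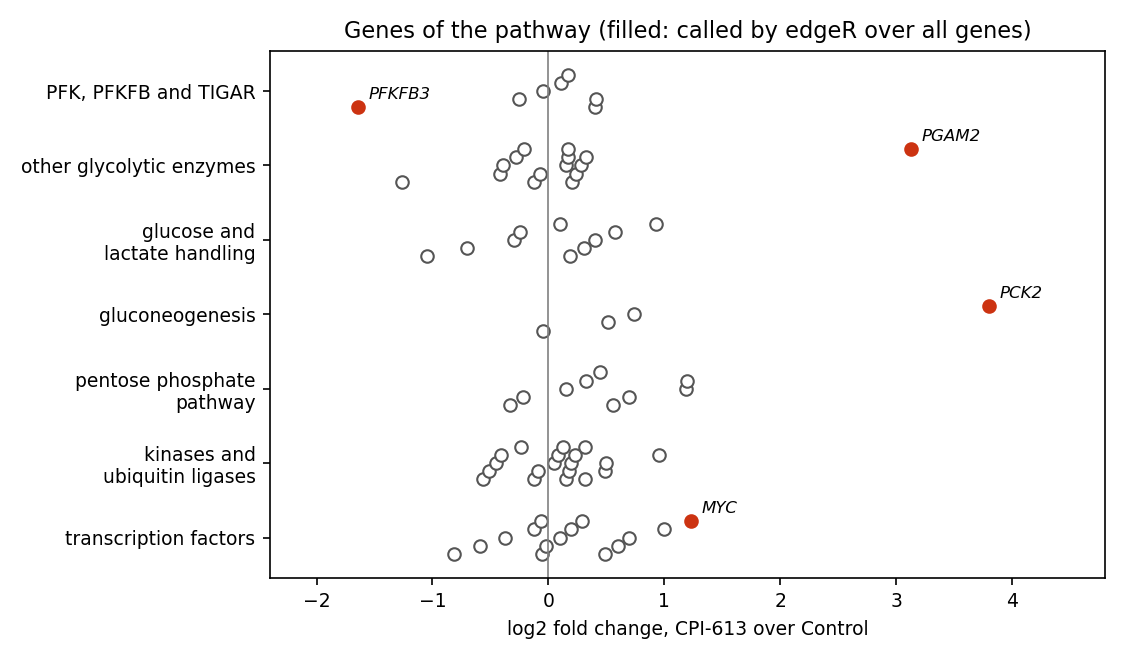
Log2 fold change of CPI-613 over Control for each tested gene of the family and of the pathway lists, 1 point a gene, filled where edgeR called it over all genes. PFKFB3 at -1.64 is the one filled point below 0, and PGAM2 (3.13), PCK2 (3.81) and MYC (1.23) are filled above 0.

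The list of kinases and ligases known to act on PFK and PFKFB proteins held 19 tested genes. It includes subunits of AMPK, a kinase that like AKT phosphorylates PFKFB2 and PFKFB3, and OGT, which is neither a kinase nor a ubiquitin ligase. Of the 19 genes 0 were called by edgeR, DESeq2 or limma-voom. In edgeR 0 had an unadjusted p under 0.05, beside 1823 of all 12671 tested genes. OGT, the enzyme that adds O-linked N-acetylglucosamine to proteins, measured 482.2, 366.4 and 439.9 CPM in Control and 1362, 761.7 and 375.5 CPM with CPI-613. CPI-613 replicate 3 lay within Control and the other two lay above it (log2 fold change 0.96, SE 0.43, edgeR adjusted p = 0.387). The GC- and length-adjusted fit called 2 genes of this list higher, OGT (1.11, SE 0.16, edgeR adjusted p = 0.00459, with 0.00459 to 0.823 over the alternatives) and PRKAB2, an AMPK subunit chosen after its values were seen (0.57, SE 0.15, edgeR adjusted p = 0.0477, with 0.0477 to 0.999 and log2 values of -0.02 to 0.57 over the alternatives). AKT2 measured 130.6 ± 20.2 and 142.6 ± 43.0 CPM.

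Of 15 tested transcription factors known at PFK and PFKFB genes 1 was called higher, 0 lower and 14 were not called. MYC, whose E-box motif occurs in the downstream PFKFB3 window, rose from 112.4, 162.1 and 117.8 CPM in Control to 277, 301.4 and 345 CPM with CPI-613 (log2 fold change 1.23, SE 0.21, edgeR adjusted p = 0.0275, with up to 0.196 over the alternatives). This call ended without Control replicate 1, without Control replicate 3 or without CPI-613 replicate 2 (edgeR adjusted p = 0.193, 0.196 and 0.151). It also ended with a block for the replicate number (edgeR adjusted p = 0.0725). HIF1A, the hypoxia-inducible factor subunit that is regulated mainly through protein stability, measured 91.87, 46.2 and 100.2 CPM in Control and 91.48, 31.29 and 12.4 CPM with CPI-613. Its groups overlapped and it was not called (log2 fold change -0.82, SE 0.68, edgeR adjusted p = 0.711). EPAS1, the related hypoxia-inducible factor subunit, measured 105.7, 84.72 and 122.5 CPM in Control and 139.8, 181.3 and 186.1 CPM with CPI-613. It lay higher in every CPI-613 library and was not called (log2 fold change 0.70, SE 0.21, edgeR adjusted p = 0.167, with 0.0506 to 0.57 over the alternatives). ATF4, a stress-induced factor, likewise did not overlap (490.7 ± 76.8 and 980.6 ± 196 CPM) and was not called (edgeR adjusted p = 0.0679), and GC- and length-adjusted it was called higher (0.85, SE 0.12, edgeR adjusted p = 0.00389, with 0.00278 to 0.371 over the alternatives). HIF1A, EPAS1 and ATF4 were chosen after their values were seen. The RNA of a factor does not give its activity, which was not measured.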

How the data were processed

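RNA of 3 Control and 3 CPI-613 libraries was prepared with NEBNext Ultra II reagents and sequenced with DNBSEQ, per the labels' protocols. CASAVA, STAR 2.5, HTSeq, edgeR 3.16.5 and DESeq2 are named in the submitters' processing notes without roles. The authors deposited estimated counts per RefSeq transcript, from a counter not given in the sources used here. A further table deposited by the authors holds values per gene, taken here as FPKM, since over 1430 single-transcript genes reads per FPKM followed the library totals within 0.572%. In 27 transcripts a date stood in place of a count, and they were left out, with 3 genes and none of the 7 genes described.

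Sums of the estimated counts over each gene's transcripts were rounded. The 53 genes without a symbol held 0.0163% of counts. edgeR 4.0.16 (R 4.3.3) was used with filterByExpr (minimum counts 10 and 15), TMM, glmQLFit and glmQLFTest on group, and Benjamini-Hochberg adjustment over 12671 genes at 0.05, two-sided. DESeq2 1.42.0 and limma 3.58.1 were alternatives. GC content and length, from the longest protein-coding GENCODE 29 transcript, were fitted by splines of 5 degrees of freedom in each library and entered as offsets. The scripts were tested on simulated data. No library pair agreed within sampling noise (chi-square per degree of freedom at least 3.86). The members and lists were chosen with earlier results of these data known. From each list up to 4 called genes with the largest change were named, or the 2 of highest CPM where none was called, and for each member the 3 genes of mean log2 CPM of at least 2 with the highest correlation. Coordinates and promoter windows are those of RefSeq for GRCh38.p14, the build that hg38 in the notes names.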

Additional observations from a re-analysis of the deposited data

How the results depend on the processing

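PFKFB3 kept its direction under all 18 alternatives. The count of 403 called genes became 1477 when GC- and length-adjusted, 893 with DESeq2, 70 at an adjusted p of 0.01 and 0 to 905 when 1 library was left out. Scaled by library size only, the median log2 difference over all genes moved from 0.02 to -0.17 and the share of higher calls from 61.0% to 46.9%. Of the 7 genes, 2 were called when GC- and length-adjusted, 0 at 0.01 and 0 to 1 with a library left out. When GC- and length-adjusted, the calls numbered 3 for other glycolytic enzymes, 1 for glucose and lactate handling, 2 for gluconeogenesis, 2 for the pentose phosphate pathway, 2 for kinases and ligases and 2 for transcription factors. DESeq2 gave 2, 1, 1, 2, 0 and 2 in that order. Library size only gave 1 for glucose and lactate handling, 1 for the pentose phosphate pathway and 2 for transcription factors. At 0.01 there were 0 among other glycolytic enzymes and transcription factors. Leaving out a library gave 0 to 1, 0 to 1, 0 to 2, 0 to 2, 0 to 1 and 0 to 2. Of 60 alternative values of the isozyme and PFKFB3 transcript shares 53 stayed within 1 SD and 7 did not, all 7 with counts not divided by length. Among these, PFKFB2 with CPI-613 went from 16.36% to 23.41% and PFKP in Control from 44.31% to 41.11%. Most of the 53 left out 1 of 3 libraries, which cannot move a mean by 1 SD, so nothing is read from them. Dividing each transcript's count by its own length was not run.

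The replicate numbers were not treated as pairs. Deviations of libraries with the same number correlated at 0.457, -0.096 and -0.608, and not every library correlated best with its own number. With the replicate block 191 genes were called, PFKFB3 among them, 1 of the 7 genes and 0 transcription factors. With the block and the GC and length adjustment 890 were called, with 1 for glucose and lactate handling, 2 for the pentose phosphate pathway, 1 for kinases and ligases and 2 for transcription factors. With 3 libraries a group, precision is set by the spread between libraries, and transcripts under about 1 CPM rest on few counts.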
